A study of Homo sapiens with 3 samples.

Results

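The miR-23, miR-27 and miR-24 clusters are a pair of paralogous miRNA loci. The chromosome 19 locus holds the hairpins MIR23A, MIR27A and MIR24-2, and the chromosome 9 locus holds MIR23B, MIR27B and MIR24-1. The members were 10 mature products taken by name (hsa-miR-23a-3p, hsa-miR-27b-3p, hsa-miR-24-3p and so on, written below without the species prefix), out of 2588 mature miRNAs listed in the deposited tables. They comprise miR-23a-3p, miR-23a-5p, miR-27a-3p, miR-27a-5p and miR-24-2-5p from chromosome 19, miR-23b-3p, miR-27b-3p, miR-27b-5p and miR-24-1-5p from chromosome 9, and miR-24-3p, which both loci encode with the same sequence. All 10 had reads in C643 and Huh-7, and 9 had reads in ES-2.

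Small RNA was sequenced from unmodified parental cells of 3 established cancer cell lines grown without any treatment: C643 from thyroid cancer, ES-2 from ovarian cancer and Huh-7 from liver cancer. Cells were collected 48 h after seeding, and each line was represented by 1 library, so no difference below has a replicate check. The study profiled these lines to measure how much of their miRNA is miR-21-5p and also deleted MIR21 in them, but the libraries are of the parental cells. Recovered reads numbered 8183100 in C643 cells, 1663181 in ES-2 cells and 2173587 in Huh-7 cells. Of these libraries Huh-7 alone carried the liver miRNAs at high level, with 4 liver markers summing to 15.5% of reads against 0.0207% in C643 and 0.0132% in ES-2. Blood cell markers summed to 0.00242% in C643 cells, 0.0333% in ES-2 cells and 0.127% in Huh-7 cells, with miR-451a and miR-142-3p at 0 in C643 and Huh-7. The 4 fibroblast and smooth muscle markers, such as miR-143-3p, summed to 0.576%, 0.405% and 0.0433% in the same order of lines, with miR-145-5p and miR-214-3p at 0 in ES-2. The 3 epithelial markers of the miR-200 family summed to 0.00125%, 0.00517% and 0.320%, with miR-200c-3p and miR-141-3p at 0 in C643, and the 3 skeletal and heart muscle markers stayed at or below 0.00129%. The sum of the fibroblast and smooth muscle list thus had the same order of lines as the chromosome 19 members. Within that list, however, miR-145-5p and miR-214-3p had 0 reads in ES-2 but were detected in Huh-7. The sums of the liver, blood cell, epithelial and muscle lists were highest in Huh-7, as were miR-23b-3p and miR-27b-3p by share. Within the blood cell list, miR-451a and miR-142-3p had reads in ES-2 only. The part of these lists in the results was not tested.

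A miRNA hairpin is cut into a 5p and a 3p product, and the product loaded into an Argonaute protein represses mRNAs that pair with its seed, bases 2 to 8. Hairpins of a cluster are cut from a shared primary transcript, whereas later processing and decay can differ for each product. miR-23 is known to repress glutaminase, miR-27 to restrain adipogenesis through PPARG, and miR-24 to repress cell cycle and DNA repair factors such as E2F2, MYC and H2AX. The chromosome 9 cluster is known from liver, where its products have been linked to SMAD signalling and lipid metabolism.

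The mature sequences are shown because the a and b members are almost the same RNA, so that everything below rests on a few bases. They are written 5′ to 3′ from RefSeq (GRCh38.p14) with the seed in capitals. The 3p products are the abundant ones:
miR-23a-3p: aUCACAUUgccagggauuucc
miR-23b-3p: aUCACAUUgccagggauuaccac
miR-27a-3p: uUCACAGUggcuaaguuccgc
miR-27b-3p: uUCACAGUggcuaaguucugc
miR-24-3p: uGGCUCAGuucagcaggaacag
Counted from 1 at the 5′ end, with the a member first, miR-23a-3p and miR-23b-3p differ by U19A over 21 shared positions, after which miR-23b-3p runs 2 bases longer. miR-27a-3p and miR-27b-3p differ by C19U. Each pair thus has 1 seed. The chromosomes of origin are told apart by a single base near the 3′ end, and for miR-23 also by the 2 further bases of miR-23b-3p. How reads that matched several loci were assigned is not given in the sources used here, so the split between a and b members carries an uncertainty that no interval below includes.

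The 5p products are far less abundant, but those of miR-24 are the only products that separate the MIR24 loci:
miR-24-2-5p: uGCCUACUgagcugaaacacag
miR-24-1-5p: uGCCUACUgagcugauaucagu
miR-23a-5p: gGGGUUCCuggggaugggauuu
miR-27a-5p: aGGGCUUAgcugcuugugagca
miR-27b-5p: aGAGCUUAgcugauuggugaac
miR-24-2-5p and miR-24-1-5p share their seed and differ at 6 of 22 positions, all in the 3′ part from A16U onwards. miR-27a-5p and miR-27b-5p differ at 8 of 22 positions, 1 of them in the seed.

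On GRCh38, the chromosome 19 hairpins span 373 bases of the minus strand, with MIR23A at chr19:13836587-13836659, MIR27A at chr19:13836440-13836517 and MIR24-2 at chr19:13836287-13836359. All 3 lie in an exon of a non-coding host transcript, listed in GENCODE 29 as AC020916.1, at the position of RefSeq's MIR23AHG. The chromosome 9 hairpins span 881 bases of the plus strand, with MIR23B at chr9:95085208-95085304, MIR27B at chr9:95085445-95085541 and MIR24-1 at chr9:95086021-95086088. They lie within the protein-coding aminopeptidase gene AOPEP (C9orf3 in GENCODE 29). MIR23B and MIR27B are intronic in all 7 overlapping transcripts, and MIR24-1 overlaps an exon of 1 of them, a transcript annotated for nonsense-mediated decay.

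The 10 members together held 4.94% of miRNA reads in C643 cells (Wilson 95% CI 4.93 to 4.96, 404322 reads), 1.84% in ES-2 cells (1.82 to 1.86, 30659 reads) and 2.73% in Huh-7 cells (2.71 to 2.75, 59271 reads). The intervals, like all below, cover counting error only, since PCR copies are not independent molecules. C643 therefore devoted the largest share of its miRNA reads to these clusters, 2.68-fold that of ES-2 and 1.81-fold that of Huh-7. miR-21-5p, the leading miRNA of each library, exceeded the summed clusters by 5.79-fold in C643 cells, 15.3-fold in ES-2 cells and 12.2-fold in Huh-7 cells. In these bulk libraries, fewer cells with a miRNA and fewer copies per cell cannot be told apart.

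miR-23a-3p, the chromosome 19 form of miR-23, held 1.89% of reads in C643 cells, 1.05% in ES-2 cells and 0.366% in Huh-7 cells. It was the highest member in C643 cells and ES-2, at rank 11 and rank 15 of all miRNAs, but stood at rank 37 in Huh-7 cells. miR-23b-3p, its chromosome 9 counterpart, held 0.388% in C643 cells, 0.0356% in ES-2 cells and 0.609% in Huh-7 cells. The place of Huh-7 thus changed between these near-identical RNAs, from lowest share for the a member to highest for the b member. C643 stood above ES-2 for both.

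The same arrangement was found for miR-27. miR-27a-3p held 0.351% of reads in C643 cells, 0.238% in ES-2 cells and 0.0643% in Huh-7 cells. miR-27b-3p held 0.844% in C643 cells, 0.0771% in ES-2 cells and 1.19% in Huh-7 cells, where it ranked 10 of all miRNAs and led the members. None of the intervals of these 4 products overlapped between lines, and ES-2 had the lowest share of either b member.

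miR-24-3p, to which both loci contribute, held 1.23% in C643 cells, 0.405% in ES-2 cells (0.396 to 0.415) and 0.462% in Huh-7 cells (0.453 to 0.471). Its ES-2 and Huh-7 shares lay close together, whereas the shares of miR-23b-3p and miR-27b-3p differed more than 10-fold. The tables list miR-24-3p once per locus, but the chromosome 19 entry took 49.3% of its reads in C643 cells (exact 95% CI 49.0 to 49.6), 49.1% in ES-2 cells (47.9 to 50.3) and 49.1% in Huh-7 cells (48.1 to 50.1). This near-equal split was the same in lines whose a and b members were distributed very differently, so it cannot be read as the output of either locus.

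**Figure D1:**
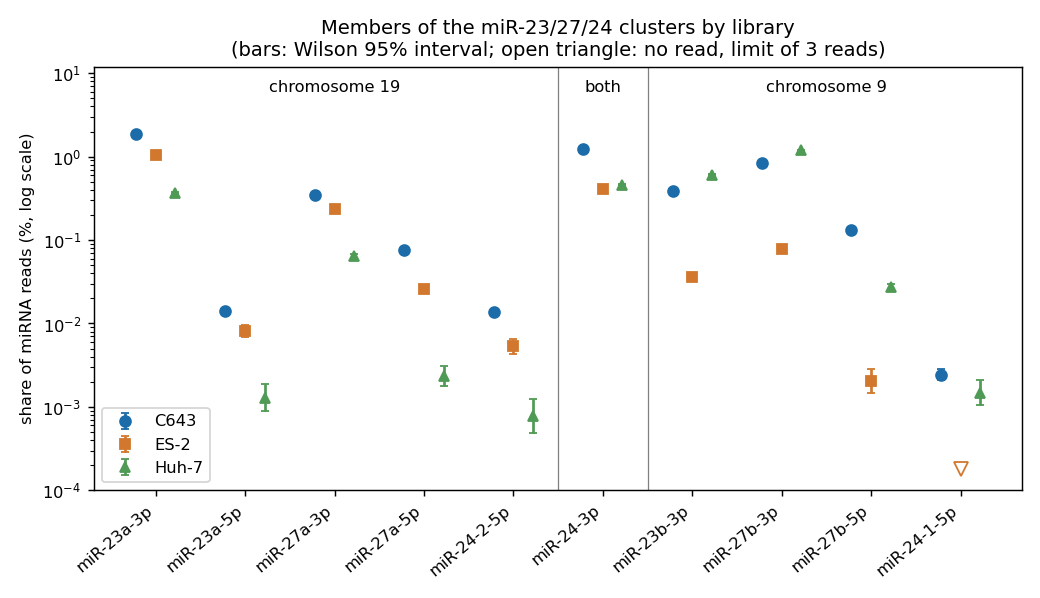
Share of miRNA reads (%, log axis) of the 10 members in the C643, ES-2 and Huh-7 libraries, with Wilson 95% intervals. The 5 chromosome 19 products descend from C643 over ES-2 to Huh-7, while ES-2 is lowest for each of the 4 chromosome 9 products, with miR-24-1-5p at the limit set by 3 reads (0.00018%).

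The 5p products had fewer reads, and those of chromosome 19 had the same order of lines as their 3p partners. miR-27a-5p had 6180 reads in C643 cells, 434 in ES-2 cells and 51 in Huh-7 cells. miR-23a-5p had 1162, 134 and 28 reads in these lines, and miR-24-2-5p had 1127, 89 and 17. As shares, each of these chromosome 19 products was highest in C643 and lowest in Huh-7.

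Of the chromosome 9 products, miR-27b-5p had 10786 reads in C643 cells, 34 in ES-2 cells and 595 in Huh-7 cells. It had the most reads of the 5p members in C643, with 0.132% of the library, but held 0.00204% in ES-2 cells and 0.0274% in Huh-7 cells. miR-24-1-5p had 200 reads in C643, 32 in Huh-7 and 0 in ES-2, where up to 0.00018% would have gone undetected. The 5p arm of MIR23B, which is not a member, had 1126, 3 and 120 reads in C643, ES-2 and Huh-7. These 5p products of chromosome 9 were highest in C643 by share, unlike miR-23b-3p and miR-27b-3p, which were highest in Huh-7, although the lowest line was ES-2 for both arms. For miR-24-1-5p the C643 and Huh-7 shares were 0.00244% (0.00213 to 0.00281) and 0.00147% (0.00104 to 0.00208). Within a library, members next to each other in abundance were separated by more than counting error, except miR-23a-5p and miR-24-2-5p in C643, and miR-27a-5p, miR-24-1-5p, miR-23a-5p and miR-24-2-5p in Huh-7, each of which overlapped the next.

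To set the loci against each other free of any scaling between libraries, chromosome 19 reads were divided by chromosome 9 reads within each library. For miR-23 the ratio of a to b was 4.87 in C643 cells (exact 95% CI 4.81 to 4.93), 29.4 in ES-2 cells (27.1 to 32.0) and 0.600 in Huh-7 cells (0.583 to 0.617). For miR-27 it was 0.416 in C643 cells (0.411 to 0.422), 3.08 in ES-2 cells (2.89 to 3.29) and 0.0539 in Huh-7 cells (0.0511 to 0.0569). In reads, the a members exceeded the b members of both families in ES-2 and the reverse held in Huh-7, whereas C643 had more reads of miR-23a-3p than of miR-23b-3p and more of miR-27b-3p than of miR-27a-3p. Reads of different sequences also depend on the efficiency of adapter ligation at their ends, so these ratios do not give the number of molecules on either side. The order of the lines can be read from them only if all libraries were prepared alike. The study used a commercial kit or an outside provider, and which served each line is not given in the sources used here.

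The 5p arms of miR-24, which are less alike, gave the same order of the lines. The ratio of miR-24-2-5p to miR-24-1-5p was 5.64 in C643 cells (exact 95% CI 4.84 to 6.58), at least 29.7 in ES-2 cells with miR-24-1-5p set to 3 reads, and 0.531 in Huh-7 cells (0.277 to 0.986). The Huh-7 value rested on 17 and 32 reads, and its upper limit lay close to equality. When all members other than miR-24-3p were summed by locus, chromosome 19 exceeded chromosome 9 by 1.72-fold in C643 cells and by 11.5-fold in ES-2 cells, and chromosome 9 exceeded chromosome 19 by 4.22-fold in Huh-7 cells.

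**Figure D2:**
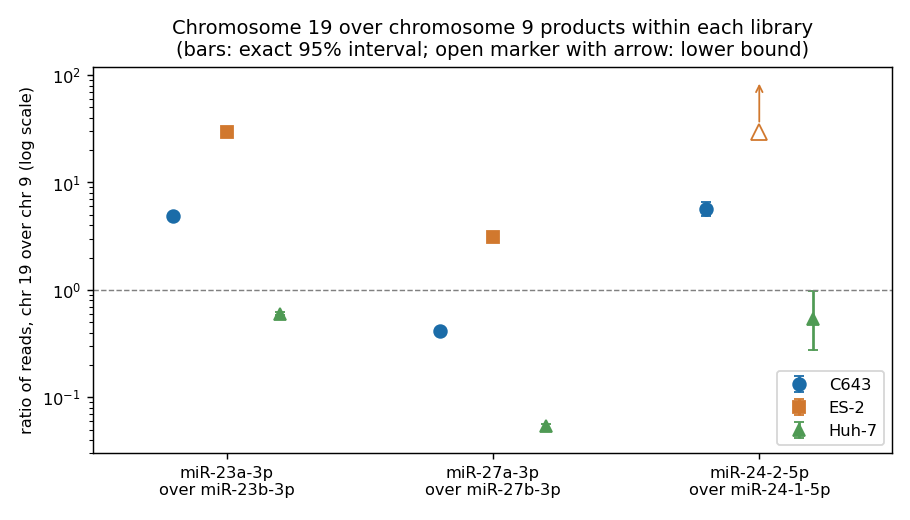
Reads of the chromosome 19 product over reads of the chromosome 9 product within each library (log axis), for miR-23, miR-27 and the 5p arms of miR-24, with exact 95% intervals and equality as the dashed line. ES-2 lies highest and Huh-7 lowest for each pair, and the open marker with an arrow is the lower bound of 29.7 for the 5p arms in ES-2.

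The shift of each pair between lines was then computed. From Huh-7 to ES-2 the ratio of a to b changed 49.0-fold for miR-23 (95% CI 44.9 to 53.4) and 57.2-fold for miR-27 (52.6 to 62.1). From Huh-7 to C643 it changed 8.12-fold for miR-23 (7.88 to 8.37), 7.72-fold for miR-27 (7.30 to 8.16) and 10.6-fold for the 5p arms of miR-24 (5.78 to 19.5). From C643 to ES-2 the factors were 6.04 for miR-23 (5.56 to 6.56) and 7.41 for miR-27 (6.94 to 7.90). The intervals of miR-23 and miR-27 overlapped for both comparisons with Huh-7, whereas those of C643 against ES-2 did not. With miR-24-1-5p at 0 reads in ES-2, the 5p arms of miR-24 gave no such factor for that line.

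The proportion of miR-23 to miR-27 3p reads within a locus moved less between lines than the balance of the a and b members. miR-23a-3p exceeded miR-27a-3p by 5.38-fold in C643 cells (exact 95% CI 5.31 to 5.45), 4.40-fold in ES-2 cells (4.25 to 4.56) and 5.68-fold in Huh-7 cells (5.37 to 6.02), so that ES-2 stood apart by more than counting error. miR-27b-3p exceeded miR-23b-3p by 2.17-fold in C643 cells (exact 95% CI 2.14 to 2.20), 2.17-fold in ES-2 cells (1.96 to 2.39) and 1.96-fold in Huh-7 cells (1.92 to 1.998). These ratios moved by at most 1.29-fold on chromosome 19 and 1.11-fold on chromosome 9. Yet the b members differed more than 10-fold by share between ES-2 and either other line, and by 8.20-fold to 9.09-fold as deposited. Other proportions moved more, among them miR-23a-3p over miR-24-3p, whose ES-2 ratio was 3.26-fold the Huh-7 ratio (3.13 to 3.40), and the arm ratios given below.

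Since a and b members carry the same seed, their sums were also compared. The miR-23 seed family held 2.28% of reads in C643 cells (95% CI 2.27 to 2.29), 1.08% in ES-2 cells (1.07 to 1.10) and 0.975% in Huh-7 cells (0.962 to 0.988). The a member supplied 83.0% of it in C643 cells, 96.7% in ES-2 cells and 37.5% in Huh-7 cells. ES-2 exceeded Huh-7 by 1.11-fold in the family share, but by 2.09-fold on the deposited scale described below, so the closeness of these sums holds by share only.

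The miR-27 seed family held 1.19% in C643 cells (1.187 to 1.20), 0.315% in ES-2 cells (0.306 to 0.323) and 1.26% in Huh-7 cells (1.24 to 1.27). The b member supplied 70.6% of it in C643 cells, 24.5% in ES-2 cells and 94.9% in Huh-7 cells. The Huh-7 share was 3.99-fold that of ES-2, and on the deposited scale ES-2 stood at 0.472 of Huh-7. The direction was thus the same on both scales, opposite to that of miR-23, but its size relative to miR-23 depended on the scale. C643 and Huh-7 changed order with the scale, with Huh-7 1.05-fold higher by share and C643 1.49-fold higher as deposited. The ratio of miR-23 to miR-27 family reads, which needs no scaling, was 1.91 in C643 cells, 3.44 in ES-2 cells and 0.776 in Huh-7 cells.

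**Figure D3:**
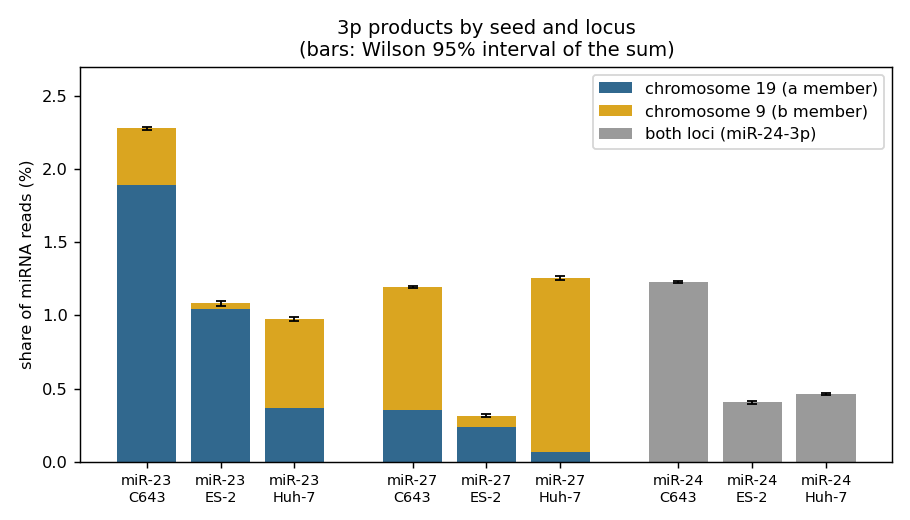
Share of miRNA reads (%) of the miR-23 and miR-27 seed families, stacked by chromosome of origin, and of miR-24-3p, in each library, with Wilson 95% intervals of the sums. By share the miR-23 sums are 1.08% for ES-2 and 0.975% for Huh-7, with the larger part from chromosome 19 and from chromosome 9, respectively, and the miR-27 sums are 0.315% and 1.26%; on the deposited scale ES-2 is 2.09-fold higher for miR-23 and at 0.472 of Huh-7 for miR-27.

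Few further miRNAs shared these seeds. miR-23c carries the miR-23 seed and had 6 reads from C643 and none from the other lines. RefSeq also lists miR-9985 with the seed of miR-27, but it is not among the 2588 miRNAs of the deposited tables, so its level is unknown. The seed of miR-128-3p, a miRNA enriched in neurons, is that of miR-27 shifted by 1 base:
miR-128-3p: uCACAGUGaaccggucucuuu
miR-128-3p held 0.151% of reads in C643 cells, 0.165% in ES-2 cells and 0.528% in Huh-7 cells. Added to the miR-27 family it gave 1.35%, 0.480% and 1.78%, so that ES-2 remained lowest.

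The arms of each precursor were compared next. The 3p arm exceeded the 5p arm in every precursor and library, and 3p products made up 95.2% of member reads in C643 cells, 97.7% in ES-2 cells and 98.8% in Huh-7 cells. The most even precursor was MIR27A, with a 3p to 5p ratio of 4.65 in C643 cells (exact 95% CI 4.52 to 4.78), 9.11 in ES-2 cells (8.25 to 10.1) and 27.4 in Huh-7 cells (20.7 to 37.0). MIR27B followed with 6.40 in C643 cells (6.27 to 6.53), 37.7 in ES-2 cells (26.8 to 54.7) and 43.6 in Huh-7 cells (40.2 to 47.3).

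MIR23A was the most uneven precursor in C643. Its 5p arm amounted to 0.00751 of the 3p arm in C643 cells (0.00709 to 0.00796), 0.00770 in ES-2 cells (0.00645 to 0.00913) and 0.00352 in Huh-7 cells (0.00234 to 0.00510). MIR23B stood at 28.2 in C643 (26.6 to 30.0) and 110.4 in Huh-7 (92.2 to 133.3), and its ES-2 ratio of 197 rested on 3 reads of the 5p arm (67.2 to 960). For the MIR24 loci summed, the ratio was 75.9 in C643 cells (71.9 to 80.2), 75.7 in ES-2 cells (61.4 to 94.4) and 205 in Huh-7 cells (155 to 277). C643 thus had relatively more 5p product from MIR27A, MIR27B and MIR23B than Huh-7, by 5.89-fold, 6.81-fold and 3.91-fold.

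Many precursors differed in their minor arm between C643 and Huh-7. Of 64 precursors of the whole table with at least 20 reads of each arm in C643 and Huh-7, 39.1% had a minor arm at least 2-fold higher relative to the major arm in C643 and 12.5% one at least 2-fold lower, with a median log2 change of 0.57. MIR27B, MIR27A, MIR23B and MIR23A had log2 changes of 2.77, 2.56, 1.97 and 1.09, at places 4, 6, 13 and 23 of the 64. Against ES-2, 27.8% of 54 precursors had a higher and 9.26% a lower minor arm by this measure, the median was 0.50, and MIR27B, MIR27A and MIR23A had 2.56, 0.97 and -0.04. Between ES-2 and Huh-7 the median over 43 precursors was 0.10, with 1.59 for MIR27A, the highest of them, 1.13 for MIR23A and 0.21 for MIR27B. The part of library preparation in these shifts was not tested.

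**Figure D4:**
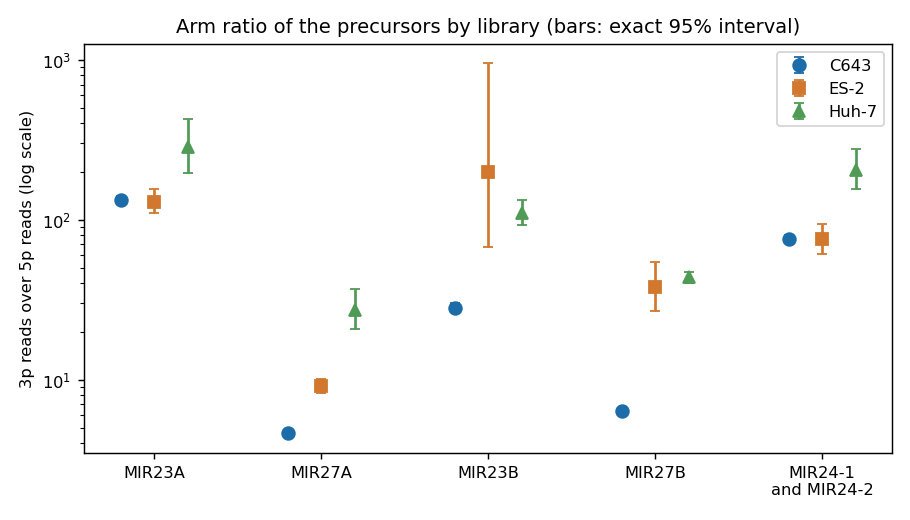
Reads of the 3p arm over reads of the 5p arm (log axis) for each precursor and library, with exact 95% intervals; the MIR24 loci are summed. Values above 1 mean more 3p product, C643 lies lowest for MIR27A (4.65), MIR27B (6.40) and MIR23B (28.2), and Huh-7 lies highest for MIR23A, MIR27A, MIR27B and the MIR24 loci.

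ES-2 and Huh-7 share a deposited table, in which values are reads divided by a factor of the library, and were compared on the log2(value + 1) scale. Of the 9 members at 10 or more in either library, ES-2 exceeded Huh-7 by 4-fold or more for 5, and Huh-7 exceeded ES-2 for 3. The background was high, since 47.2% of 390 miRNAs passed this fold, 19.5% as higher in ES-2 and 27.7% as higher in Huh-7. The median of these members was 2.43 on the log2 scale, against -0.54 over all miRNAs tested. This median is the value of miR-23a-3p, and with members past the mark in both directions it describes no common shift. Members that reached the filter through 1 line only, here miR-23a-5p and miR-24-2-5p through ES-2, were bound to differ. These figures are therefore a description.

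The 5 members higher in ES-2 were all from chromosome 19. miR-23a-3p had 12079 units in ES-2 cells and 2237 in Huh-7 cells, a 5.40-fold difference, and miR-27a-3p had 2744 and 394 units, a 6.97-fold difference. For miR-27a-5p, miR-24-2-5p and miR-23a-5p the log2 difference was 4.30, 3.44 and 3.40. The 3 members higher in Huh-7 were from chromosome 9, with 9.08-fold for miR-23b-3p, 8.20-fold for miR-27b-3p and 7.10-fold for miR-27b-5p. miR-24-1-5p was below the filter.

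The ES-2 column sums to 1.89-fold that of Huh-7, so that deposited values and shares differ by 0.92 in the log2 ratio of these lines, and by less on the log2(value + 1) scale for low values. By share, the 4-fold mark was passed by 3 of 10 members in favour of ES-2 and by 4 in favour of Huh-7, now with miR-24-1-5p, against 14.9% and 41.4% of 437 miRNAs and 56.3% in either direction. Here miR-24-1-5p reached the filter through Huh-7 only, and miR-24-2-5p through ES-2 only. Both were bound to differ, so these counts are a description as well. miR-23a-3p and miR-27a-3p then differed by 2.86-fold and 3.70-fold, and miR-23b-3p and miR-27b-3p by 17.1-fold and 15.5-fold. The directions of these members held on either scale, but that of miR-24-3p did not, with 4679 units in ES-2 cells and 2826 in Huh-7 cells and yet the lower share in ES-2. The summed clusters likewise were 1.28-fold higher in ES-2 as deposited and 1.48-fold higher in Huh-7 by share.

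C643 was deposited in a table of its own that may have been normalized separately, so its levels are only set side by side with the others. C643 exceeded ES-2 by 4-fold or more for 4 of 10 members and ES-2 exceeded C643 for 0. Of 351 miRNAs 26.2% passed this fold, 15.4% in favour of C643 and 10.8% in favour of ES-2. By share the mark was passed by 4 members as well, with 29.0% of 348 miRNAs past it, 19.5% in favour of C643 and 9.48% in favour of ES-2. With a pseudocount of 10 the log2 difference of miR-24-1-5p went from 4.61 to 1.74, which left 3 members past the mark against 13.1% of all miRNAs. On either scale these 4 members were from chromosome 9. miR-23b-3p had 3723 units in C643 and 411 in ES-2, miR-27b-3p had 8092 and 890, and miR-27b-5p had 1264 and 23.6, whereas miR-24-1-5p, with 0 reads in ES-2, was at least 11.3-fold higher. The chromosome 19 products differed by 1.23-fold for miR-27a-3p to 2.40-fold for miR-27a-5p, and the median member stood at 1.30 on the log2 scale, against 0.07 over all miRNAs. miR-24-1-5p reached the filter through C643 only and was bound to differ, so the counts and the median are a description.

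C643 exceeded Huh-7 by 4-fold or more for 7 of 10 members and Huh-7 exceeded C643 for 0. Of 399 miRNAs 47.6% passed this fold, 22.6% in favour of C643 and 25.1% in favour of Huh-7. The 7 members were the 5 chromosome 19 products, from 8.10-fold for miR-23a-3p to 50.5-fold for miR-27a-5p, together with miR-27b-5p at 7.55-fold and miR-24-3p at 4.18-fold. By share miR-24-3p was 2.66-fold higher in C643, which left 6 members past the mark, with 52.9% of 442 miRNAs past it, 17.4% in favour of C643 and 35.5% in favour of Huh-7. miR-23b-3p had 3723 units in C643 and 3730 in Huh-7, and miR-27b-3p had 8092 and 7299. By share both were higher in Huh-7, by 1.57-fold and 1.41-fold, so the order of C643 and Huh-7 for miR-27b-3p depended on the scale. The median member stood at 2.96 on the log2 scale, against -0.21 over all miRNAs. On the deposited scale miR-23a-5p, miR-24-2-5p and miR-24-1-5p reached the filter through C643 only, with 7.88, 4.79 and 9.01 units in Huh-7. By share this held for miR-24-2-5p only. Such members were bound to differ, though not by 4-fold, and miR-24-1-5p, at a log2 difference of 1.29, did not pass the mark. The counts and the median are therefore a description.

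**Figure D5:**
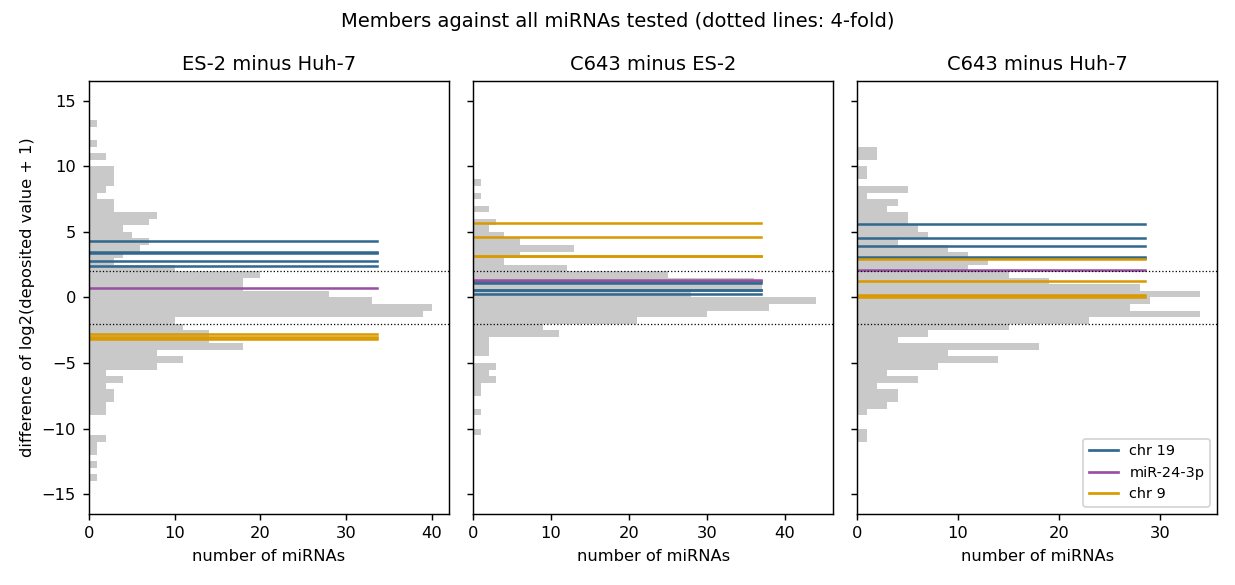
Distribution of the log2(value + 1) difference over all miRNAs tested in each pair of libraries (grey bars, number of miRNAs), with the members as coloured lines and 4-fold as dotted lines. Between ES-2 and Huh-7 the chromosome 19 members lie above the upper line and the chromosome 9 members below the lower line, with miR-24-3p at 0.73 between them.

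Of the other miRNAs that lie beside the clusters, MIR181C begins 38040 bases from MIR23A on the opposite strand, within NANOS3, and is followed by MIR181D. miR-181d-5p had 178 reads in C643 cells, 37 in ES-2 cells and 147 in Huh-7 cells, and miR-181c-5p had 84, 10 and 30. By share miR-181d-5p was highest in Huh-7, at 0.00676% against 0.00218% in C643 and 0.00222% in ES-2, unlike the chromosome 19 members. For miR-181c-5p the intervals of C643 and Huh-7 overlapped by share, and the deposited values of 9.85 and 8.45 put them in the other order. The pattern over the 3 libraries that was nearest to miR-23a-3p plus miR-27a-3p was that of miR-505-3p, at a distance of 0.20 in centred log2 share, followed by miR-132-3p at 0.29 and miR-625-3p at 0.58. Nearest to miR-23b-3p plus miR-27b-3p were miR-2110 at 0.65, miR-1306-5p at 0.72 and miR-146a-5p at 0.74. With 3 libraries, such likeness is only a description.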

How the data were processed

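Small RNA libraries were prepared from 50 ng of total RNA per line and sequenced as single reads on a HiSeq instrument. The study names a commercial kit or an outside provider for library preparation, without saying which served each line. The submitters' processing notes list cutadapt, Bowtie2 2.3.3, SAMtools 1.5, featureCounts 1.5.3, edgeR 3.18.1 and hg38, without settings; the treatment of reads matching several loci and of strand is not given in the sources used here. The deposited signal values, named CPM by the authors, are reads per miRNA locus divided by a library factor and do not sum to 1000000. C643 is in 1 table, ES-2 and Huh-7 in another.

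Each nonzero value was a whole multiple of the smallest step of its column (tolerance 0.001 reads, 100% of values), which gave back the reads. Loci of the same mature miRNA were summed. Shares are of all recovered reads (Wilson intervals), ratios within a library have exact Clopper-Pearson intervals, and changes of a ratio have 95% log odds intervals. A count of 0 was bounded at 3 reads. Levels were compared as log2(value + 1) for miRNAs at 10 or more in either library, and a 4-fold difference was counted. With 1 library per line no test between lines was possible.

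The named miRNAs were the 10 members, the other MIR23B arm, the MIR3074 products antisense to MIR24-1, miRNAs with a member's seed, miR-128-3p, the miR-181c/d neighbours, and the 3 nearest patterns to each 3p sum among miRNAs at 100 or more in any library (Euclidean distance). Members and lists were chosen with earlier results of these data known. RefSeq matched 10 of 10 members and 2281 of 2588 miRNAs. Scripts were tested on simulated counts and used Python 3.11.15, pandas 2.3.3, numpy 2.4.6 and scipy 1.17.1.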

Additional observations from a re-analysis of the deposited data

Results flagged for a closer look

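The a to b balance had opposite signs in different lines, which is why it is listed here. The log2 ratio of miR-23a-3p to miR-23b-3p was 2.28 in C643 cells, 4.88 in ES-2 cells and -0.74 in Huh-7 cells. That of miR-27a-3p to miR-27b-3p was -1.26 in C643 cells, 1.62 in ES-2 cells and -4.21 in Huh-7 cells. That of miR-24-2-5p to miR-24-1-5p was 2.49 in C643 cells, at least 4.89 in ES-2 cells and -0.91 in Huh-7 cells. With 1 library per line the difference between lines was not tested.

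Reads were also found for products outside the comparisons, above the limit of 3 reads. MIR3074, annotated on the strand opposite MIR24-1, had 25 reads of miR-3074-5p and 8 of miR-3074-3p in Huh-7 cells and 0 in the other lines. miR-23c had 6 reads in C643 cells. miR-24-3p and the reverse complement of miR-3074-5p share a run of 20 bases, and whether counting used strand is not given in the sources used here, so the origin of these reads was not tested.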

How the results depend on the processing

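Of 52 main values recomputed under the alternatives, 36 stayed within their interval or within 1.5 times the count and 16 moved. Of 170 log2 differences of single members 42 moved. The 170 include values under other filters and at 2-fold, settings that leave a member's difference unchanged, so those values could not move. By share the difference of miR-24-3p between ES-2 and Huh-7 turned from 0.73 to -0.19 and that of miR-27b-3p between C643 and Huh-7 from 0.15 to -0.50, and the ES-2 and Huh-7 calls went from 5 and 3 to 3 and 4. The summed share of the members, for C643 first, then ES-2 and Huh-7, was 4.74%, 2.13% and 1.67% when deposited values were divided by 1000000, so that Huh-7 then stood below ES-2. It was 6.92%, 2.57% and 4.09% without miR-21-5p in the denominator, and 5.21%, 1.93% and 2.75% with 1 locus per miRNA. With both arms summed, the a to b ratio was 4.74 for miR-23 in C643, and 0.437 in C643 and 3.33 in ES-2 for miR-27. At 2-fold, 7 of 10 members differed between C643 and ES-2, with 58.1% of 351 miRNAs past that fold. Precursors with a higher minor arm numbered 8 of 52 for ES-2 against Huh-7 at a minimum of 10 reads and 1 of 26 at 50 reads, and 9 of 34 for C643 against ES-2 at 50 reads; these minimums were chosen after seeing the data, as was an exact binomial test of the reads, which called 88.2% of 390 miRNAs and 9 of 9 members and compares the libraries, not the lines. Counting error is smallest in C643, and the ratios with under 50 reads on a side are the least certain. They are the miR-24-2-5p to miR-24-1-5p ratio in ES-2 and Huh-7, and some of the arm ratios. Those arm ratios are MIR23B and MIR27B in ES-2, and MIR23A and the MIR24 loci in Huh-7. No paired analysis was possible because every group is a single library with no replicate number.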
